A study of Mus musculus with 6 samples.

Results

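The miRNAs described here came from a cluster of small hairpins on the mouse X chromosome, in the stretch between the genes Slitrk2 and Fmr1. They were 10 mature miRNAs chosen by name (mmu-miR-465a-5p, mmu-miR-465c-5p, mmu-miR-470-5p, mmu-miR-463-5p, mmu-miR-741-3p, mmu-miR-743a-3p, mmu-miR-743b-3p, mmu-miR-871-3p, mmu-miR-880-3p and mmu-miR-881-3p) of 1907 mature miRNAs counted. The rule names the miRNAs and sets no threshold on a measured value. MicroRNAs are RNAs of about 22 bases that are cut from hairpin precursors and guide silencing complexes to messenger RNAs, mostly by pairing of the seed, bases 2 to 8 of the mature strand. The cluster is found in rodents, changes fast in sequence and copy number between species, and is best known from the testis, where its miRNAs are made during spermatogenesis. Members near each other on 1 strand can be cut from a shared primary transcript, and the cut hairpin usually leaves one of its arms, 5p or 3p, as the stable miRNA.

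Small RNAs were sequenced from mouse embryonic stem cells (ESCs) of the C57BL/6 lines RB18 and RB20 in serum, 2i and R2i, with 1 library per line and medium and 6 in all. Serum cells were kept in 15% fetal bovine serum. 2i cells were kept in serum-free N2B27 medium with 1 µM PD0325901, a MEK inhibitor, and 3 µM CHIR99021, a GSK3 inhibitor, and R2i cells in the same medium with 1 µM PD0325901 and 10 µM SB431542, which blocks TGF-β receptors. All cells received 1000 U/ml of LIF, grew without feeders on gelatin, and descended from lines derived in R2i with LIF, so that serum and 2i cells were moved from R2i and passaged at least 10 times. Each library was a pool of 3 cultures, so the lines were the only replicates and the p-values measure the spread between these libraries. Ground state is used below for the mean of 2i and R2i, as opposed to serum.

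The 6 libraries held between 1041858 and 3593356 reads assigned to miRNAs. In every medium the RB18 library was the smaller of the pair, and line and depth cannot be told apart. The ESC label was checked against the miR-290 to miR-295 and miR-302b miRNAs, and all 7 of 7 were counted, with 24.0 to 35.1% of each library's reads and 1 of them, miR-302b-3p, called higher in the ground state. In a male germ cell and testis list of 5 miRNAs, miR-202-3p was at 0 in every library. Of its 3 tested miRNAs, 2 were called lower in the ground state. The summed level of this list was 753.5 to 1012 counts per 1000000 reads (CPM) in serum and 110.5 to 529.3 in the ground state. Most of that sum was miR-34c-5p in every library, and miR-449a-5p did not separate serum from the ground state. The miR-449a-5p counts, ordered as serum, 2i, R2i, were 16, 29, 46 for RB18 and 43, 26, 78 for RB20. In a fibroblast list of 5, 0 of 4 tested were called, and the summed level was 1431 to 2047 CPM in serum and 2415 to 3653 in the ground state. The fibroblast sum thus stood higher in the ground state like the members below, as did miR-451a of the blood list, and their part in the members' levels was not tested. Neither list moved as a whole. Most fibroblast counts were of miR-143-3p, and miR-214-3p, with 6 and 0 counts in serum and 0 to 4 in the ground state, did not separate. In the blood list miR-142a-5p was lower in R2i, with 734 and 967 counts against 4160 and 5209 in serum, and miR-142a-3p was lower there too. None of the fibroblast markers was at 0 in all libraries. Of the remaining lists, the endoderm sum ranged from 1409 to 2018 CPM in serum and from 1468 to 2471 in the ground state, the blood sum from 2526 to 2841 and from 325.5 to 4791 with miR-223-3p at 0 and 1 of 3 tested called higher (miR-451a, with 0 and 3 counts in serum and 22 to 66 in the ground state), and the muscle sum from 46.6 to 79.4 and from 0.305 to 7.72 with 2 called lower.

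The mature sequences of all 10 members are shown 5′ to 3′ because the members are told apart by few bases and because seeds group them. They are from RefSeq on GRCm38.p6, the seed is in capitals, and a position is counted from 1 at the 5′ end of the miRNA.
mmu-miR-465a-5p: uAUUUAGAauggcacugauguga
mmu-miR-465c-5p: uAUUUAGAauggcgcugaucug
mmu-miR-743a-3p: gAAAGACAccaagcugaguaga
mmu-miR-743b-3p: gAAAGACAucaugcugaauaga
mmu-miR-880-3p: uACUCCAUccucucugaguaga
mmu-miR-881-3p: aACUGUGUcuuuucugaauaga
mmu-miR-871-3p: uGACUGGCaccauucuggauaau
mmu-miR-470-5p: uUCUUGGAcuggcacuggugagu
mmu-miR-741-3p: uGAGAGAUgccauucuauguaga
mmu-miR-463-5p: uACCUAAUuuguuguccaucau

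The 5p strands of miR-465a and miR-465c shared 1 seed, which was also that of miR-465b-5p and miR-465d-5p, 4 mature miRNAs in all. From miR-465a-5p to miR-465c-5p the substitutions were A14G and G20C, and from miR-465c-5p to miR-465b-5p the substitution was C13U. The 3p strands of miR-743a and miR-743b shared a seed and differed by C9U, A12U and G18A. The other 6 members each had a seed of their own, and no seed of a member was found in a miRNA outside the stretch. Beyond the seeds, mmu-miR-743a-3p and mmu-miR-880-3p both carried the run CUGAGUAGA near the 3′ end, and mmu-miR-743b-3p and mmu-miR-881-3p both carried CUGAAUAGA. The run GACUGGCAC was shared by mmu-miR-470-5p and mmu-miR-871-3p, but at different places, so that their seeds differed. Each of the 3 runs occurred in 2 of 1623 mature miRNAs of the table that had a RefSeq sequence (0.123%), and these are descriptions of letters, searched on the mature strand.

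RefSeq places 22 miRNA hairpins between Slitrk2 and Fmr1, all on the minus strand of chromosome X, and no other gene annotated by GENCODE overlapped any of them. Of these, 19 stood in a block of 62.4 kb at chrX:66776757-66839125 (GRCm38.p6). The block began 115.4 kb past the end of Slitrk2 and ended 1.84 Mb before Fmr1, so the members lay nearer to Slitrk2 than to Fmr1. All 10 members came from this block and from 11 of its hairpins, since miR-465c-5p is encoded by both Mir465c-1 and Mir465c-2. In order from Slitrk2, the members' hairpins were Mir743, Mir743b, Mir741, Mir463, Mir880, Mir881, Mir871, Mir470, Mir465c-1, Mir465c-2 and Mir465. The remaining 3 hairpins, Mir201, Mir547 and Mir509, began 1.15 Mb farther on, and their 6 mature miRNAs had 3 counts over all libraries.

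The cluster was a small part of the ESC miRNA pool. The 10 members had 3204 counts of 14046048 over the 6 libraries, and they held 83.1% of the 3855 counts of all 40 mature miRNAs listed for the stretch. Within the members, mmu-miR-871-3p gave 51.5% of the counts (95% exact binomial interval 49.8 to 53.3%) and mmu-miR-470-5p 24.8% (23.3 to 26.3%). These 2 miRNAs together made up between 72.9 and 78.7% of the members' counts in each of the 6 libraries, so this part of the composition was much the same in every medium. Binomial and counting intervals cover counting error only, and those of log2 fold changes come from the spread between libraries in the edgeR fit. Of the 10 members, 8 were counted in every library. The exceptions were mmu-miR-465a-5p, at 0 in RB20 serum cells, and mmu-miR-743a-3p, at 0 in both serum libraries and in RB18 2i cells.

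**Figure D1:**
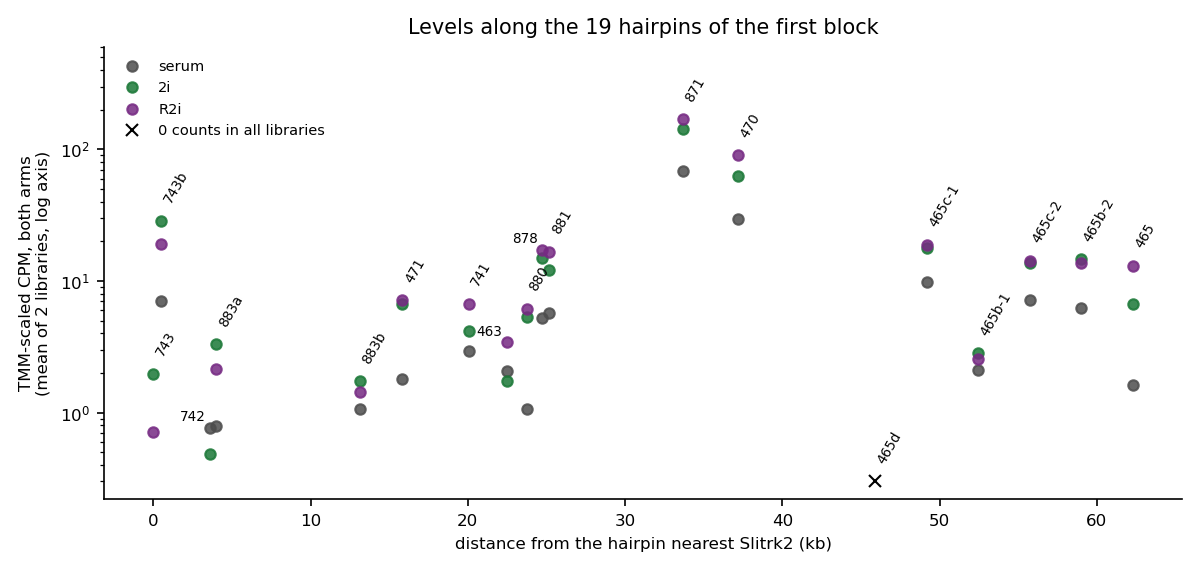
Mean level of each hairpin of the block by medium against its distance in kb from the hairpin nearest Slitrk2; the level is the sum of both arms in CPM after TMM scaling on a log axis, as the mean of 2 libraries, and the cross marks Mir465d with 0 counts, and means of 0 (serum for Mir743, R2i for Mir742) are not drawn. Mir871 and Mir470, at 33.7 and 37.2 kb, stand highest in all 3 media; rows shared by hairpin copies (miR-465c-5p and miR-465b-3p) are drawn at each copy.

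Of the 10 hairpin names of the members, 6 had at least 90% of their counts on 1 arm. For miR-470, 99.7% of 796 counts were the 5p arm (95% exact binomial interval 99.1 to 100%), and for miR-743b, 98.5% of 268 counts were the 3p arm (96.2 to 99.6%). The 3p arm took 95.5% of the 1728 counts of miR-871 (94.5 to 96.5%), 91.7% for miR-881, whose 5p arm had 12 counts, (86.0 to 95.7%) and 88.3% of 60 counts for miR-741 (77.4 to 95.2%). No count fell on the other arm of miR-463 (33 counts, 5p) or of miR-880 (49 counts, 3p), where the 95% interval of the counted arm reached down to 89.4 and 92.8%. The remaining members' hairpins were less one-sided, with 63.7% of 91 counts on the 5p arm for miR-465a, 75.6% of 213 for miR-465c, and 61.5% of 13 counts on the 3p arm for miR-743a. Among the other hairpins of the stretch with at least 10 counts, the larger arm held 91.3% for miR-878, 85.7% for miR-471, 76.4% for miR-465b, 75.9% for miR-883a and 56.5% for miR-883b. The 3p strands of miR-465a, miR-465b and miR-465c are identical in sequence, so their rows cannot be told apart, and the 33, 37 and 52 counts in them were divided by the counting step.

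Of the 10 members, 7 stood higher in every ground-state library than in either serum library, where 16.2% of the 1233 miRNAs with a count and 29.1% of the 571 tested miRNAs did so. The differences passed the call described below for mmu-miR-470-5p, mmu-miR-743b-3p and mmu-miR-871-3p. Levels are given below as CPM of the reads of all tested miRNAs after TMM scaling, in serum, then 2i, then R2i, with RB18 before RB20 in each medium. All 10 members are 22 or 23 bases long, so the levels were not scaled for length. Whether miRNAs of different sequence were captured equally was not tested. Orders and shares between miRNAs or arms therefore describe reads. Of the 10, 7 passed the filter on low counts and were tested with edgeR's quasi-likelihood test over 571 miRNAs. A call needed a Benjamini-Hochberg adjusted p under 0.01 together with a fold above 2. The comparisons of 2i and of R2i with serum use the same serum libraries and are not independent.

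**Figure D2:**
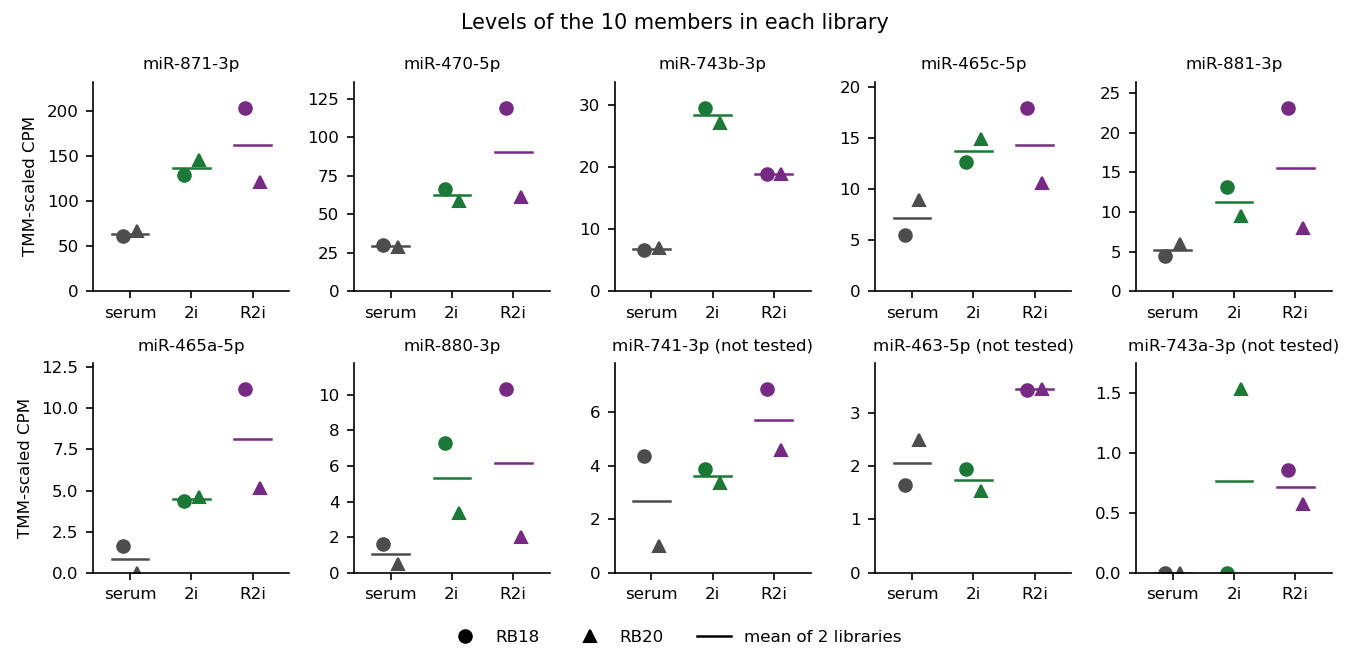
Level of each member in CPM after TMM scaling (linear axis from 0, own scale per panel) by medium, with circles for RB18, triangles for RB20 and a line at the mean of the 2 libraries. For the 7 tested members every 2i and R2i point lies above both serum points, as for 29.1% of all tested miRNAs, and the RB18 point of R2i is the highest for 6 of these 7.

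The most abundant member was mmu-miR-871-3p, which ranked 210 by mean level among the 1233 miRNAs with a count. Its level was 61.3 and 66.4 CPM in serum, 129.3 and 145.6 CPM in 2i, and 204.2 and 121.3 CPM in R2i. All 4 ground-state libraries were above both serum libraries, and the lines differed most in R2i. Cells in 2i differed from those in serum by 1.11 ± 0.30 (SE) on the log2 scale, which missed the call with an edgeR adjusted p of 0.0172. The difference of R2i from serum was 1.34 ± 0.30 and was called (adjusted p 0.0084). Its 5p arm, mmu-miR-871-5p, was at 2.19 and 5.95 CPM in serum, 1.94 and 7.02 CPM in 2i, and 7.72 and 7.15 CPM in R2i, so that serum and ground-state libraries overlapped.

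The next in level, mmu-miR-470-5p, is known as a miRNA reported to pair with the coding sequences of pluripotency factors such as Nanog. Its level was 30.1 and 28.7 CPM in serum, 66.6 and 58.3 CPM in 2i, and 119.2 and 61.2 CPM in R2i. The groups did not overlap, and the R2i library of RB18 was nearly 2-fold above that of RB20. Cells in 2i differed from those in serum by 1.08 ± 0.34 on the log2 scale (edgeR adjusted p 0.0311, not called), and cells in R2i by 1.59 ± 0.35 (adjusted p 0.0068, called). In the order of levels, mmu-miR-871-3p was above mmu-miR-470-5p, and that above mmu-miR-743b-3p, without overlap in all 3 media.

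The largest fold among the called members was that of mmu-miR-743b-3p in 2i. Its level was 6.57 and 6.94 CPM in serum, 29.6 and 27.2 CPM in 2i, and 18.9 and 18.9 CPM in R2i. It was the one tested member for which both 2i libraries exceeded both R2i libraries, and the lines differed little in any medium. Cells in 2i differed from those in serum by 2.06 ± 0.30 on the log2 scale (edgeR adjusted p 0.00075), and cells in R2i by 1.47 ± 0.31 (adjusted p 0.00564), both called. Its seed partner mmu-miR-743a-3p had 8 counts in all: 0 and 0 in serum, 0 and 5 counts in 2i, and 1 and 2 counts in R2i. A count of 0 allows up to 1.72 and 1.34 counts per 1000000 assigned reads in the serum libraries of RB18 and RB20, so its change between media was not detectable at this depth.

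The miR-465 family followed. The level of mmu-miR-465c-5p was 5.48 and 8.92 CPM in serum, 12.6 and 15.0 CPM in 2i, and 18.01 and 10.6 CPM in R2i, and that of mmu-miR-465a-5p was 1.64 and 0 CPM in serum, 4.37 and 4.58 CPM in 2i, and 11.1 and 5.15 CPM in R2i. Both were above serum in all 4 ground-state libraries, and neither was called: mmu-miR-465c-5p differed from serum by 0.93 ± 0.43 (edgeR adjusted p 0.106) in 2i and 0.90 ± 0.44 (adjusted p 0.139) in R2i on the log2 scale. With only 3 counts of mmu-miR-465a-5p in serum, the ratio of pooled CPM to serum was 5.77 for 2i (95% counting interval 1.75 to 29.9) and 8.52 for R2i (2.66 to 43.6), and the edgeR adjusted p was 0.0758 and 0.0319. Without the serum library of RB20 the fitted log2 fold change of mmu-miR-465a-5p was 1.37 in 2i and 2.10 in R2i, in place of 2.44 and 3.16. Without that of RB18 serum was at 0, and the fitted values, 6.47 and 7.20, depend on the prior count and are no bounds. With no filter on low counts, mmu-miR-465a-5p was called in R2i (edgeR adjusted p 0.000775) and for the ground state (adjusted p 0.00128). Reads of the near-identical copies could be divided among their rows by the counting, so the 5p strands of miR-465a, miR-465b and miR-465c were also summed. The sum was 9.86 and 14.4 CPM in serum, 29.6 and 30.5 CPM in 2i, and 44.6 and 22.6 CPM in R2i. It did not overlap between serum and ground state, and its log2 fold change for the ground state was 1.36 ± 0.36 (edgeR adjusted p 0.0152, not called). The summed 3p strands were at 7.12 and 3.97 CPM in serum, 9.72 and 8.24 CPM in 2i, and 12.9 and 11.2 CPM in R2i, with a log2 fold change of 0.90 ± 0.39 (adjusted p 0.089).

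The neighbours mmu-miR-880-3p and mmu-miR-881-3p, whose hairpins lie 23.8 and 25.2 kb along the block, were counted more rarely. The level of mmu-miR-881-3p was 4.38 and 5.95 CPM in serum, 13.1 and 9.46 CPM in 2i, and 23.2 and 8.01 CPM in R2i, and its log2 fold change was 1.097 ± 0.59 in 2i (edgeR adjusted p 0.157) and 1.45 ± 0.60 in R2i (adjusted p 0.0917). The level of mmu-miR-880-3p was 1.64 and 0.496 CPM in serum, 7.29 and 3.36 CPM in 2i, and 10.3 and 2.00 CPM in R2i. For both, all ground-state libraries were above serum, but the lowest of them, RB20 in R2i, was near the highest serum library. With 4 counts of mmu-miR-880-3p in serum, the ratio of pooled CPM was 4.68 for 2i (95% counting interval 1.62 to 18.5) and 3.92 for R2i (1.301 to 15.8), and the edgeR adjusted p was 0.123 and 0.166. Single libraries moved these values. Without the RB18 library of R2i the log2 fold change in R2i was 0.63 for mmu-miR-881-3p, and without that of RB20 it was 2.15. For mmu-miR-880-3p, fitted at 2.23 in 2i and 2.19 in R2i, the value in R2i was 0.91 without the RB18 library of R2i and 3.23 without that of RB20. Without the serum library of RB18 it was 3.34 in 2i and 3.30 in R2i, and without that of RB20 1.55 and 1.53. In each medium mmu-miR-880-3p was lower in RB20 than in RB18.

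The last 2 members, mmu-miR-741-3p and mmu-miR-463-5p, did not pass the filter on low counts. The level of mmu-miR-741-3p was 4.38 and 0.992 CPM in serum, 3.89 and 3.36 CPM in 2i, and 6.86 and 4.58 CPM in R2i, and that of mmu-miR-463-5p was 1.64 and 2.48 CPM in serum, 1.94 and 1.53 CPM in 2i, and 3.43 and 3.43 CPM in R2i. Serum and ground-state libraries overlapped for both. The ratio of pooled CPM in the ground state to serum was 1.65 for mmu-miR-741-3p (95% counting interval 0.818 to 3.69) and 1.202 for mmu-miR-463-5p (0.525 to 3.08), so a change was not detectable at this depth. Below mmu-miR-743b-3p, the order of the members was less firm: mmu-miR-465c-5p and mmu-miR-881-3p overlapped in every medium, as did mmu-miR-465a-5p and mmu-miR-880-3p, and mmu-miR-880-3p and mmu-miR-741-3p.

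Summed over the 10 members, the cluster took 122.7 (RB18) and 108.8 (RB20) of every 1000000 assigned reads (ppm) in serum, 268.8 and 262.7 ppm in 2i, and 465.5 and 229.3 ppm in R2i. The means were 115.7 ± 9.85 (SD, n = 2) in serum, 266 ± 4.32 in 2i and 347 ± 167 in R2i. Both 2i libraries and both R2i libraries lay above serum, and the spread within R2i was far larger than in the other media. Within a line, the ratio to serum was 2.19 in RB18 and 2.42 in RB20 for 2i, and 3.79 in RB18 and 2.11 in RB20 for R2i. The RB18 library of R2i was also the smallest of the 6, and the part of its depth in its high share was not tested. The 95% exact binomial interval of its share, 425 to 508.8 ppm, did not reach that of any other library.

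**Figure D3:**
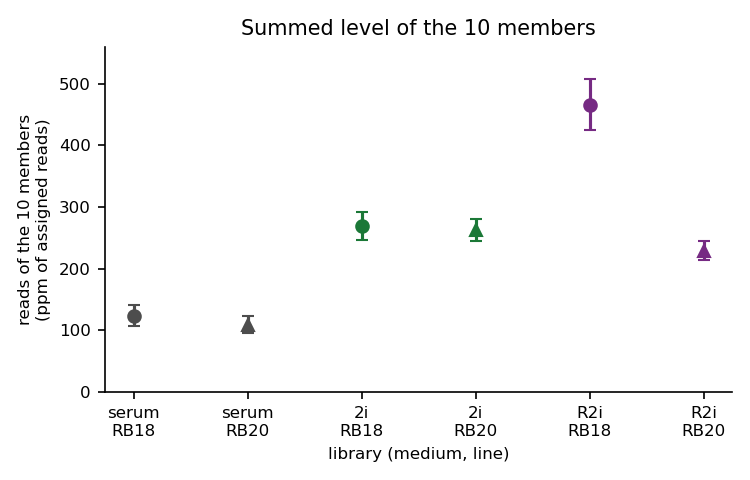
Summed reads of the 10 members in ppm of the assigned reads (linear axis from 0) in each library, with 95% exact binomial intervals that cover counting error only. The serum libraries are at 122.7 and 108.8, the 2i libraries at 268.8 and 262.7, and the R2i libraries stand apart from each other at 465.5 and 229.3.

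In 2i against serum, 1 of the 7 tested members, mmu-miR-743b-3p, was called higher, where 16.8% of all 571 tested miRNAs were called higher. In R2i against serum, 3 of the 7 were called higher (mmu-miR-470-5p, mmu-miR-743b-3p and mmu-miR-871-3p), where 15.1% of all tested were. For the ground state the same 3 were called, with log2 fold changes of 1.34 ± 0.31, 1.77 ± 0.28 and 1.22 ± 0.27 and edgeR adjusted p of 0.00786, 0.00105 and 0.00651, where 17.0% of all tested were called higher. No member was called lower in any of these comparisons. The count for 2i was thus not above the background. The other 3 of the 10 members were not tested, and members low in serum pass the filter through the media where they are high, so nothing is read from 3 of 7. With the cell line as a block, 0 members were called in R2i against serum, with edgeR adjusted p of 0.0102 for mmu-miR-470-5p, 0.011 for mmu-miR-743b-3p and 0.0201 for mmu-miR-871-3p. With the same block only mmu-miR-743b-3p was called for the ground state (adjusted p 0.00298).

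The calls for R2i depended on single libraries. Without the RB18 library of R2i, no member was called in R2i against serum, and the log2 fold changes were 1.06 for mmu-miR-470-5p, 0.93 for mmu-miR-871-3p and 1.48 for mmu-miR-743b-3p, with edgeR adjusted p of 0.03, 0.0462 and 0.0199. Without either serum library the number called was also 0, and without the 2i library of RB20 it was 1. The lone library of a medium is then assumed to vary like the other media. For the ground state, 1 member (mmu-miR-743b-3p) was called without the serum library of RB18, without that of RB20, or without the 2i library of RB20. In 2i against serum, mmu-miR-743b-3p was called with each library left out in turn, and mmu-miR-470-5p and mmu-miR-871-3p were called besides when the RB18 library of R2i was left out (adjusted p 0.00951 and 0.00791).

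**Figure D4:**
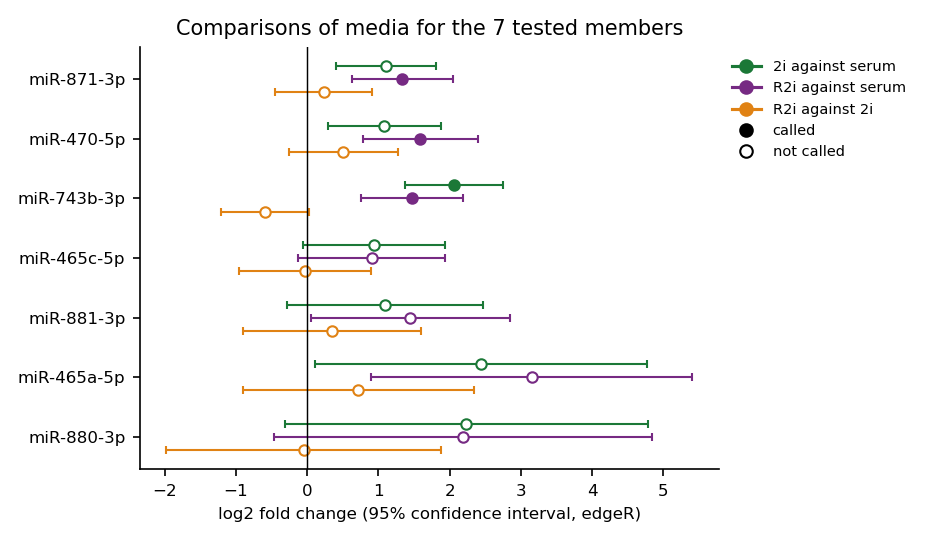
Log2 fold changes with 95% confidence intervals from edgeR for the 7 tested members in 3 comparisons of media, with filled points for calls. Filled points are mmu-miR-743b-3p in 2i and mmu-miR-470-5p, mmu-miR-743b-3p and mmu-miR-871-3p in R2i, and every interval for R2i against 2i reaches across 0.

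The size of the changes can be described over the list beside all tested miRNAs. The median log2 fold change of the 7 tested members was 1.11 in 2i and 1.47 in R2i against serum, beside -0.03 and -0.07 over all 571. Since a member low in serum passes the filter through the media where it is high, a count was also taken over all 10. Of the 10 members, 7 had all 4 ground-state libraries above both serum libraries, where 16.2% of the 1233 miRNAs with a count did. The members ranked from 210 to 829 by mean level among these 1233. The share is not matched to their levels, so nothing is read from 7 of 10. The 3 without this separation were mmu-miR-741-3p, mmu-miR-463-5p and mmu-miR-743a-3p, the members that were not tested. Elsewhere on chromosome X, the median log2 fold change of 46 tested miRNAs was -0.38 in 2i and -0.46 in R2i. For the ground state 2 of these 46 were called higher and 8 lower, beside 97 higher and 114 lower of all 571 tested.

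R2i and 2i were compared directly, and 0 members were called by edgeR, where 0.35% of all tested were called in either direction. At an unadjusted p under 0.05 the count of members was also 0, where 18.2% of all tested passed. DESeq2 and limma called 0 members too. The interval closest to excluding 0 was that of mmu-miR-743b-3p, with a log2 fold change of -0.59 (95% confidence interval -1.204 to 0.03). For mmu-miR-470-5p the difference was 0.51 (-0.25 to 1.27) and for mmu-miR-871-3p 0.23 (-0.45 to 0.92). For the low members the intervals were wide, and that of mmu-miR-880-3p ran from -1.98 to 1.89.

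Between the lines, with medium as a covariate, 0 members were called for RB20 against RB18 by edgeR, where 0.0% of all tested were called. At an unadjusted p under 0.05, 1 of the 7 tested members passed, where 6.3% of all tested did. It was mmu-miR-880-3p, with a log2 fold change of -1.66 ± 0.49 and an adjusted p of 0.647. Its level in RB20 was below that in RB18 in 3 of 3 media. DESeq2 and limma also called 0 members.

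The other miRNAs of the stretch were 30 in number, and 13 of them had at least 10 counts in all. Another 8 had 1 to 9 counts and 9 had 0, among them both strands of miR-465d. Of the 30, 5 passed the filter: mmu-miR-878-5p, mmu-miR-465b-5p, mmu-miR-871-5p, mmu-miR-471-5p and mmu-miR-465c-3p. The highest, mmu-miR-878-5p, was at 5.48 and 3.97 CPM in serum, 11.2 and 16.8 CPM in 2i, and 20.6 and 10.6 CPM in R2i. Its groups did not overlap, and its log2 fold change for the ground state was 1.61 ± 0.45 (edgeR adjusted p 0.019, not called). The level of mmu-miR-465b-5p was 2.74 and 5.45 CPM in serum, 12.6 and 10.99 CPM in 2i, and 15.4 and 6.87 CPM in R2i, and that of mmu-miR-471-5p was 0.548 and 1.98 CPM in serum, 3.89 and 7.02 CPM in 2i, and 9.44 and 3.72 CPM in R2i. Both were above serum in all ground-state libraries and neither was called (edgeR adjusted p 0.0506 and 0.054 for the ground state).

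The rest with at least 10 counts were mmu-miR-465a-3p (33 counts), mmu-miR-465b-3p (37), mmu-miR-883a-3p (22), mmu-miR-878-3p (15), mmu-miR-883b-5p (13), mmu-miR-881-5p (12), mmu-miR-471-3p (10) and mmu-miR-883b-3p (10). Of these 8, mmu-miR-465a-3p and mmu-miR-883a-3p had all ground-state libraries above serum. Of the 30, 5 had that separation (16.7%). The 30 include 9 miRNAs without a count in any library, which cannot separate. The 16.2% given above covers only miRNAs with a count, so the shares are not compared. Over the 12 tested miRNAs of the stretch, members included, none was called besides the 3 members named above.

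The miRNAs outside the stretch whose pattern was most like the mean of the tested members were found by Pearson's r of log2 CPM over the 6 libraries. The 5 highest were mmu-miR-541-3p (r = 0.979), mmu-miR-33-5p (0.966), mmu-miR-770-3p (0.962), mmu-miR-302b-3p (0.962) and mmu-miR-98-3p (0.960), of which mmu-miR-541-3p and mmu-miR-770-3p lie on chromosome 12 and mmu-miR-98-3p on chromosome X. The points share libraries and media, and with 6 libraries an r over 0.9 was reached by 52 of 559 miRNAs (9.3%). In serum mmu-miR-541-3p was at 0 and 0 CPM and mmu-miR-770-3p at 0.548 and 0.496 CPM, so their r depends on the prior count. The value r does not measure the size of a change: mmu-miR-33-5p was at 34.5 and 28.3 CPM in serum and 38.9 to 54.9 CPM in the ground state. The level of mmu-miR-302b-3p was 348.3 and 379.2 CPM in serum, 1504 and 915.1 CPM in 2i, and 2943 and 1351 CPM in R2i. Like most members, mmu-miR-302b-3p was highest in the R2i library of RB18. Among the tested members themselves, r with their own mean ran from 0.856 for mmu-miR-743b-3p to 0.980 for mmu-miR-470-5p. Each member is part of that mean, so these values cannot be set against those of the outside miRNAs.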

How the data were processed

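Small RNA libraries of RB18 and RB20 ESCs in serum, 2i and R2i were analysed (6 libraries). The authors deposited whole-number counts for 1907 mature miRNAs; per the submitters' processing notes, FastQC 0.11.5, cutadapt 1.3, Bowtie 1.1.2 and featureCounts 1.5 were used with mm10, and the handling of reads that match several places is not given in the sources used here. The authors also deposited log2 values for 1233 miRNAs, which equal log2(count / median-of-ratios size factor + 1) within 0.006 and served for an alternative. The number of columns of values left unmapped was 0.

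Counts were fitted with edgeR 4.0.16 (TMM, filterByExpr with a minimum count of 10, quasi-likelihood test, 1 coefficient per medium, Benjamini-Hochberg adjustment over 571 miRNAs), after the steps were tested on simulated data. TMM CPM used the reads of the tested miRNAs. The standard error is the absolute log2 fold change over the square root of F. Same-numbered samples are the same cell line and so pair across media. The correlation of the RB20 minus RB18 deviations was 0.211 for serum with 2i, -0.128 for serum with R2i and 0.243 for 2i with R2i. Alternatives were DESeq2 1.42.0, limma 3.58.1, other filters and scalings, the line as a block, each library left out, and summed miR-465 copies (chosen after seeing the data). All 10 members are named, as are other miRNAs of the stretch with at least 10 counts and the 5 outside miRNAs of highest r. Members and lists were chosen with earlier results of these data known. Total counts were 1041858 to 3593356 per library. With 3 counts as the floor, this depth shows levels down to between 0.835 and 2.88 ppm of the assigned reads.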

Additional observations from a re-analysis of the deposited data

Results flagged for a closer look

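For several members the change from 1 medium to another went in opposite directions in the 2 lines. With 1 library per line and medium, whether the change differed between the lines was not tested. From 2i to R2i, the log2 CPM (prior count 2) of mmu-miR-871-3p differed by 0.66 in RB18 and -0.26 in RB20, and that of mmu-miR-465c-5p by 0.48 and -0.47. For mmu-miR-881-3p the values were 0.78 in RB18 and -0.22 in RB20, and for mmu-miR-880-3p 0.45 and -0.56. All 4 pairs compare the same 2i and R2i libraries and so are not independent of each other. The RB18 library of R2i had the highest summed share of the members, and these miRNAs are part of that sum. From serum to 2i, mmu-miR-741-3p differed by -0.14 in RB18 and 1.18 in RB20, and mmu-miR-463-5p by 0.16 and -0.48, each from 11 counts or fewer per library.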

How the results depend on the processing

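With 2 libraries per medium and members at few counts, depth limits what can be shown for the less abundant members, and the cause of the changes below was not tested. In 2i against serum, 2 members were called with DESeq2, 3 without a filter on low counts, 3 at an adjusted p under 0.05 with no fold limit, and 1 to 3 with each library left out. In R2i against serum (3) the number was 2 with DESeq2, which lost mmu-miR-743b-3p, 4 without a filter and 4 at the looser threshold, 0 with cell line as a replicate block and 0 to 2 with each library left out. For the ground state (3) it was 3 with DESeq2, 4 without a filter, 4 at the looser threshold, 1 with the block and 1 to 3. The fourth member was mmu-miR-465a-5p in each case. The share of all miRNAs called under each alternative is not given here, so a rise or fall in these counts is not read as a result about the members. The block changed no other count of calls. The summed share was 140 (serum), 321 (2i) and 412 (R2i) ppm when the whole stretch was summed, and 213, 526 and 649 (serum, 2i, R2i) without the 5 most abundant miRNAs in the total. No log2 fold change against serum of the 7 tested members turned its sign under any alternative run. In R2i against 2i, mmu-miR-465c-5p (-0.03) turned to 0.062 with library totals, 0.063 with DESeq2, 0.055 with limma, 0.042 without the 5 most abundant miRNAs and 0.113 with miR-465 copies summed, and mmu-miR-880-3p (-0.05) to 0.058 with library totals, 0.215 with DESeq2 and 0.033 without the 5 most abundant. In RB20 against RB18, mmu-miR-465c-5p (0.0065) turned to -0.135 with library totals, -0.024 with DESeq2, -0.055 with at least 10 counts in every library, -0.056 with no replicate block for medium, -0.013 without the 5 most abundant and -0.201 with copies summed. With each library left out, R2i against 2i ran from -0.42 to 0.36 for mmu-miR-465c-5p, -0.062 to 0.92 for mmu-miR-470-5p, -0.22 to 0.55 for mmu-miR-871-3p, -1.37 to 0.98 for mmu-miR-880-3p and -0.51 to 1.03 for mmu-miR-881-3p. RB20 against RB18 ran from -0.26 to 0.44 for mmu-miR-465c-5p, -0.11 to 0.061 for mmu-miR-743b-3p and -0.44 to 0.16 for mmu-miR-871-3p. None of these differences was called.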
